A study of Mus musculus with 12 samples.

Results

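Plac8, Degs2 and Qrfp are 3 of the 55421 genes in a count table from MOC2 cells, and they were chosen by their measured differences between the EV labels, which are large and point opposite ways without and with paclitaxel. MOC2 is a mouse oral squamous cell carcinoma line, and EVs, extracellular vesicles, are membrane particles that cells shed. The study asked which of the cues that senescent cancer cells give their surroundings depend on shed vesicles. The differences between EV labels within each treatment chose these genes, so those differences, and the within-label effects of paclitaxel that share their libraries, are given as descriptions with no test. All 3 genes passed the filter on low counts that left 18108 genes for testing.

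The libraries fall into 4 groups of 3. The EV-Proficient label belongs to the derivative named MOC2-25 and the EV-Deficient label to the derivative named MOC2-27, in which vesicle release was blocked genetically; the labels name no blocked gene. Each derivative was sequenced as DMSO controls and after 600 nM paclitaxel, a microtubule-stabilising drug, for 48 h in plated cultures. With 1 derivative line per label, vesicle status and other features of that line cannot be told apart. Nothing in the labels says that the libraries of a group came from separate cultures, so p-values measure the spread between these libraries, which may be technical. Library totals ran from 23263472 to 62955757 counts, and a gene's level is given as CPM, its counts per 1000000 counts of the scaled library size.

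The authors added 2 rows to the table, named gfp and dngfr. The gfp row held 0 counts in each of the 12 libraries, which allows up to 0.129 CPM in the shallowest one, on unscaled totals. The dngfr row, in CPM of the unscaled library total, held 5.29, 8.16 and 11.4 in EV-proficient DMSO libraries and 1.68, 1.83 and 2.33 in EV-deficient DMSO libraries. Under paclitaxel it held 2.60, 3.67 and 3.998 in EV-proficient and 12.1, 10.9 and 14.2 in EV-deficient libraries. Its high groups, EV-proficient DMSO and EV-deficient paclitaxel, did not overlap its low ones, and they are the groups in which Plac8, Degs2 and Qrfp were low. Its mean went from 8.29 to 3.42 between DMSO and paclitaxel in MOC2-25 and from 1.95 to 12.4 in MOC2-27, so that neither derivative held a constant level, and each group was nearer in mean to the group of the other EV label under the other treatment. The labels do not say which derivative should carry this sequence. Whether the EV labels were exchanged within 1 treatment was not tested, and every difference between EV labels and every within-label effect of paclitaxel below takes the labels as deposited.

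Plac8 encodes a small cysteine-rich protein that has been linked to the fusion of autophagosomes with lysosomes in tumour cells. Degs2 encodes an enzyme of the endoplasmic reticulum that hydroxylates dihydroceramide to phytoceramide, a lipid of skin, gut and kidney epithelia, and its close relative Degs1 makes ordinary ceramide from the same substrate. Qrfp encodes the precursor of RFamide neuropeptides, known from the hypothalamus for their part in feeding. A receptor for them is encoded by Qrfpr. Ceramide released from sphingomyelin by the enzyme of Smpd3 takes part in one route of vesicle budding.

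The 3 genes lie on different chromosomes, all on the minus strand of GRCm38 as annotated in GENCODE M21: Plac8 (ENSMUSG00000029322) at chr5:100553725-100572245, Degs2 (ENSMUSG00000021263) at chr12:108678711-108702315 and Qrfp (ENSMUSG00000043102) at chr2:31806166-31810580. They were chosen for a like pattern between EV labels, and the 250 bases before the first listed start of each are shown as a description. The bases are from RefSeq on GRCm38.p6 and read 5′ to 3′ on the gene's own strand. Matches of CCAAT or GGGCGG on either strand are in capitals. The windows are chr5:100572206-100572455, chr12:108702307-108702556 and chr2:31810581-31810830.
Plac8: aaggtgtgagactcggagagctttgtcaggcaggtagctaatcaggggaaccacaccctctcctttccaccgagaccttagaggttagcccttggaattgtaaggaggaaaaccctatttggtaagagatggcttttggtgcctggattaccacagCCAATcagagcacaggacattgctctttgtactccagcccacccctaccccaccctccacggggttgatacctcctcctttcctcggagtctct
Degs2: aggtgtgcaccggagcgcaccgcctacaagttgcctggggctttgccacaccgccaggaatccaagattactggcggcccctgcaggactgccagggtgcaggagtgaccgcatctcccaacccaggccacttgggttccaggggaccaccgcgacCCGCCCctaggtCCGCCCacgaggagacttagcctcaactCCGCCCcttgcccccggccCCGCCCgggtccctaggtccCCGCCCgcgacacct
Qrfp: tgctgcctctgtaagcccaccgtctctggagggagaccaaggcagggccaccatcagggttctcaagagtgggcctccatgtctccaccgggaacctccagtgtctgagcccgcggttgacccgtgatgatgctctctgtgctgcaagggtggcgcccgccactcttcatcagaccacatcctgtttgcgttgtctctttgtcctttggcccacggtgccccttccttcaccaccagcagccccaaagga
Searched on both strands were the TATA box as TATAAA, the CCAAT box as those letters, the GC box as GGGCGG, the AP-1 motif as TGANTCA and the E box as CANNTG. The Plac8 window held 1 CCAAT, which 33.8% of the 32851 mouse promoter windows of this length hold. Degs2 held 5 matches of GGGCGG that do not overlap, and 1 of CANNTG. At least 1 match of GGGCGG was found in 32.7% of windows, and at least 1 of CANNTG in 66.2%. Qrfp held no match of any of the 5, and none of the windows held TATAAA (12.4% of windows) or TGANTCA (6.75%). Plac8 has a second listed start, whose window held 2 matches of CANNTG and no others. GC content was 52.8% for the printed Plac8 window, 69.2% for Degs2 and 60.8% for Qrfp, against a median of 52.4% over all windows. The printed windows thus had none of the 5 motifs in common.

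Plac8 was low in EV-proficient DMSO libraries, at 3.44, 3.45 and 3.92 CPM (134 to 144 counts), and high in EV-deficient DMSO libraries, at 69.2, 61.7 and 55.5 CPM (2530 to 3880 counts). Under paclitaxel it stood at 53.8, 51.3 and 47.8 CPM in EV-proficient and at 3.32, 3.40 and 3.56 CPM in EV-deficient libraries. Every library of the high groups thus exceeded every library of the low groups. The group means were 3.601 ± 0.278 and 62.1 ± 6.89 CPM under DMSO, and 51.0 ± 3.00 and 3.42 ± 0.124 CPM under paclitaxel (EV-proficient first; SD, n = 3 each). In the order of levels, EV-deficient DMSO came first and EV-proficient paclitaxel next, a ratio of 1.22 with ranges only 1.68 CPM apart, less than the SD of either group. A 14.2-fold step separated these from EV-proficient DMSO, which overlapped EV-deficient paclitaxel.

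Degs2 had a like order but a lower level in the EV-proficient paclitaxel libraries. Its values were 1.39, 1.39 and 0.937 CPM (32 to 58 counts) in EV-proficient DMSO and 30.1, 26.7 and 25.2 CPM (1151 to 1685 counts) in EV-deficient DMSO libraries. Under paclitaxel they were 5.10, 6.31 and 5.06 CPM in EV-proficient and 0.820, 1.10 and 1.41 CPM in EV-deficient libraries. The lowest EV-deficient DMSO library exceeded the highest EV-proficient paclitaxel library by 18.9 CPM, and the group means, 27.3 ± 2.48 and 5.49 ± 0.712 CPM (SD, n = 3 each), stood 4.98-fold apart. EV-proficient DMSO (1.24 ± 0.261 CPM) and EV-deficient paclitaxel (1.11 ± 0.296 CPM; SD, n = 3 each) overlapped, 4.43-fold below EV-proficient paclitaxel. Unlike Plac8, Degs2 therefore had an intermediate group.

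Qrfp was the one of the 3 whose highest group was EV-proficient paclitaxel. Its values there were 11.9, 11.2 and 10.5 CPM (259 to 637 counts), and in EV-deficient DMSO libraries 6.28, 5.34 and 6.25 CPM (256 to 352 counts). In EV-proficient DMSO libraries it stood at 0.195, 0.694 and 0.615 CPM, from 8, 29 and 21 counts, so that replicate 1 lay below the other two. In EV-deficient paclitaxel libraries it stood at 0.503, 0.476 and 0.509 CPM, from 22 to 31 counts. EV-proficient paclitaxel (11.2 ± 0.690 CPM) was 1.88-fold above EV-deficient DMSO (5.96 ± 0.536 CPM), with no overlap. EV-deficient DMSO in turn was 11.9-fold above EV-proficient DMSO (0.501 ± 0.268 CPM), which overlapped EV-deficient paclitaxel (0.496 ± 0.0175 CPM; SD, n = 3 each).

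**Figure D1:**
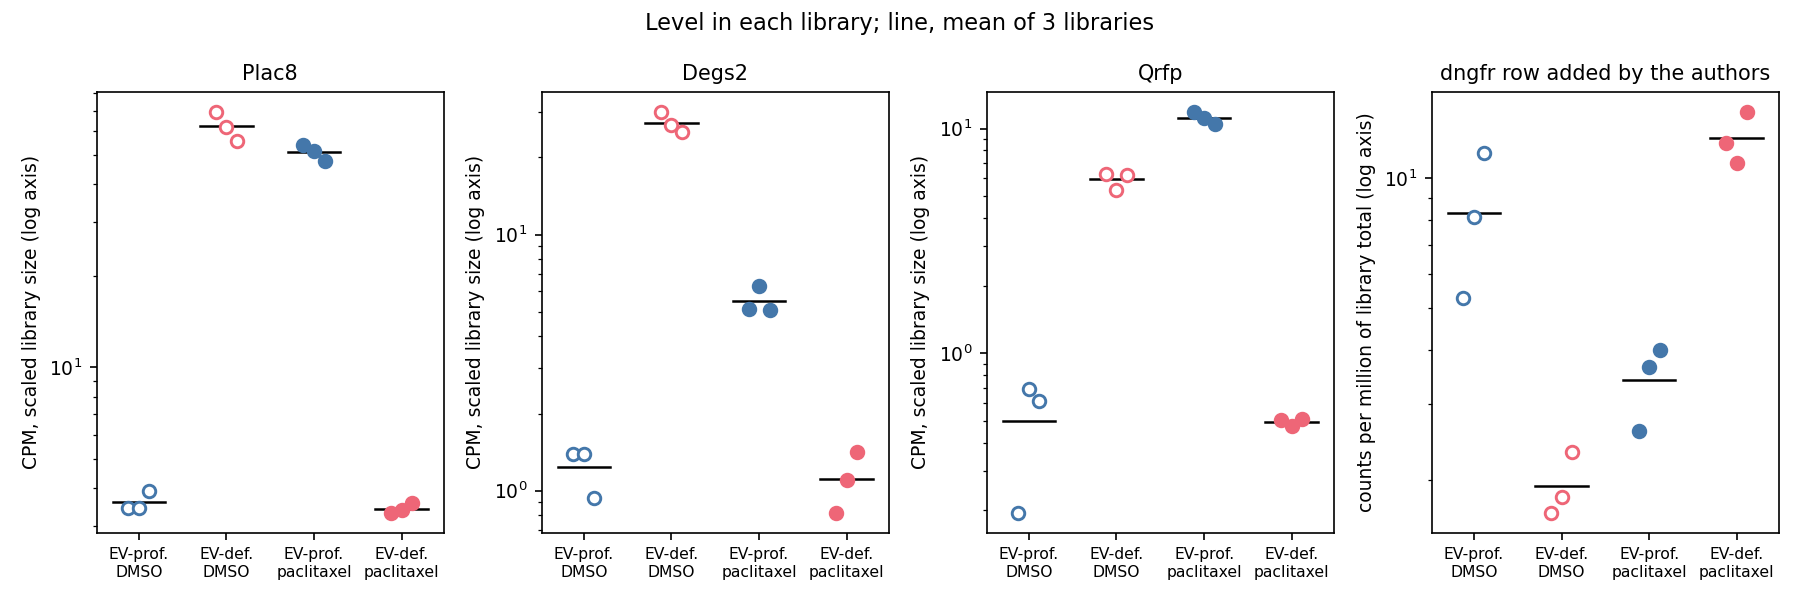
Level of Plac8, Degs2 and Qrfp in each of the 12 libraries (CPM, log axis; points are libraries, lines are means of 3), beside the dngfr row in CPM of the unscaled library total (log axis). The 3 genes are high in EV-deficient DMSO and EV-proficient paclitaxel libraries and low in the other 2 groups, and dngfr runs the opposite way.

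Per kilobase of exon, Plac8 had the highest level of the 3 in every group: its mean was 39.0 CPM per kb in EV-deficient DMSO and 2.26 in EV-proficient DMSO libraries, where Degs2 stood at 10.6 and 0.479 and Qrfp at 2.03 and 0.171. In EV-proficient paclitaxel libraries the order of the other two was reversed, with Qrfp at 3.82 and Degs2 at 2.12 CPM per kb, after Plac8 at 32.0. Degs1 stood at 44.0 to 74.9 CPM per kb in the 4 groups, above Degs2 in each. The ratio of counts between members within a library, in which depth cancels, showed the shift of Degs2 directly. The median of Plac8 counts per Degs2 count was 2.48 in EV-proficient DMSO, 2.30 in EV-deficient DMSO and 3.08 in EV-deficient paclitaxel libraries, but 9.46 in EV-proficient paclitaxel libraries. Its range there, 8.14 to 10.6, did not overlap that of the other groups, 2.20 to 4.19. Plac8 counts per Qrfp count ran from 4.97 to 17.6 in EV-proficient DMSO libraries, with the highest value in replicate 1, which had 8 Qrfp counts. They ran from 8.88 to 11.6 in EV-deficient DMSO, from 6.59 to 7.14 in EV-deficient paclitaxel and from 4.54 to 4.59 in EV-proficient paclitaxel libraries.

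Expressed as EV-deficient against EV-proficient, the log2 fold change under DMSO was 4.11 ± 0.10 (SE) for Plac8, 4.45 ± 0.18 for Degs2 and 3.58 ± 0.25 for Qrfp, or 17.3-fold, 21.8-fold and 11.9-fold higher. Under paclitaxel it was -3.90 ± 0.10, -2.30 ± 0.18 and -4.49 ± 0.24, or 14.9-fold, 4.93-fold and 22.4-fold lower. By size, Plac8, Degs2 and Qrfp ranked 43, 30 and 90 of the 18108 genes under DMSO, and 39, 328 and 22 under paclitaxel. For background, 23.0% of the genes passed the threshold between EV labels under DMSO (edgeR quasi-likelihood test, Benjamini-Hochberg adjusted p under 0.05), 12.4% higher and 10.6% lower, and 37.8% under paclitaxel, 16.0% higher and 21.8% lower. At least 4-fold higher in EV-deficient libraries under DMSO and at least 4-fold lower under paclitaxel, called in both, were 53 genes, 0.293% of those tested, the 3 among them. These values are the ones that chose the genes, and nothing is read from them.

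**Figure D2:**
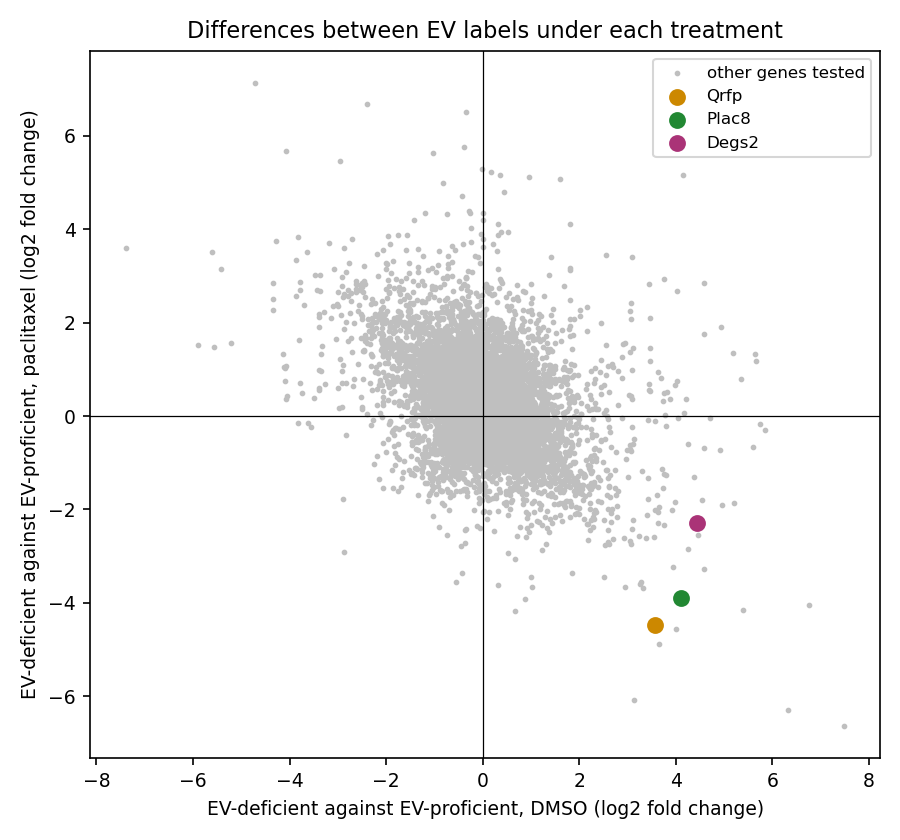
Log2 fold change of EV-deficient against EV-proficient libraries under DMSO (x axis) and under paclitaxel (y axis) for the 18108 tested genes, with Plac8, Degs2 and Qrfp coloured. The 3 lie at the lower right, between 3.58 and 4.45 on the x axis and between -4.49 and -2.30 on the y axis.

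Seen within each EV label, paclitaxel went with higher levels of the 3 genes in EV-proficient cells, by 3.83 ± 0.10 (log2, SE) for Plac8, 2.14 ± 0.18 for Degs2 and 4.49 ± 0.25 for Qrfp. In EV-deficient cells the values were -4.18 ± 0.10, -4.61 ± 0.18 and -3.58 ± 0.24. These effects share their libraries with the differences between EV labels and are likewise descriptions, and their direction rests on the deposited EV labels. Set across labels, as the dngfr row groups the libraries, EV-deficient DMSO over EV-proficient paclitaxel gave ratios of 1.22 for Plac8, 4.98 for Degs2 and 0.533 for Qrfp. EV-deficient paclitaxel over EV-proficient DMSO gave 0.951, 0.898 and 0.989. For background, 58.2% of the genes passed the threshold for paclitaxel in EV-proficient cells (31.1% higher, 27.1% lower) and 62.9% in EV-deficient cells (32.4% higher, 30.5% lower). The difference of the paclitaxel effects, EV-deficient minus EV-proficient, was -8.01 for Plac8, -6.75 for Degs2 and -8.06 for Qrfp, where 40.7% of all genes passed the threshold (16.9% above 0, 23.8% below).

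The effect of paclitaxel averaged over both EV labels weights the labels equally and shares no direction with the differences that chose the genes, so it was tested. Degs2 fell by 1.23 ± 0.13 on the log2 scale, 2.35-fold (edgeR quasi-likelihood adjusted p 2.7e-08), and it kept this call in every alternative run. Qrfp was 0.45 ± 0.18 higher on the log2 scale, 1.37-fold (adjusted p 0.0313). Plac8 was lower, by a log2 fold change of -0.18 ± 0.07 (adjusted p 0.0339), against a median of 0.07 over all genes. For comparison, 68.4% of the genes tested passed the threshold in this contrast (37.1% higher, 31.3% lower), so the count of 3 of 3 says little beyond it. By size of this effect Degs2 ranked 3260, Qrfp 9823 and Plac8 14678 of 18108.

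The calls of Qrfp and Plac8 lay near the threshold. Qrfp was not called in 6 of the 12 edgeR fits that left out 1 library: EV-proficient DMSO replicate 1 (0.25, adjusted p 0.135), EV-deficient DMSO replicate 2 (0.41), EV-proficient paclitaxel replicates 1 (0.40) and 2 (0.42) and EV-deficient paclitaxel replicates 1 (0.42) and 3 (0.42). Plac8 was not called without EV-deficient DMSO replicate 1 (-0.14) or EV-proficient DMSO replicate 3 (-0.15). Nor was it called with limma-voom, with upper-quartile scaling (-0.052), which moved the median of all genes by 0.12, or with a stricter low-count filter. Of the 3 genes, only Degs2 thus had an average response to paclitaxel that was called in each of these fits.

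Across the 12 libraries, the genes whose log2 CPM was most like that of Plac8 were Gpc6, a cell-surface proteoglycan (Pearson r = 0.989), Padi4, a peptidylarginine deiminase (0.989), the phosphatase gene Dusp2 (0.986), the Notch ligand gene Dll1 (0.986) and Klf4, a transcription factor of epithelial differentiation (0.984). Padi4 stood at 23.7, 111, 128 and 23.6 CPM in EV-proficient DMSO, EV-deficient DMSO, EV-proficient paclitaxel and EV-deficient paclitaxel libraries. Both of its high groups were near each other in level, as those of Plac8 were.

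For Degs2 the most alike were Lrp2, an endocytic receptor (0.989), Smpdl3b, a sphingomyelinase-like phosphodiesterase (0.989), Gramd4 (0.988), Cdh3, the gene of P-cadherin (0.987), and Ubn1 (0.982). Lrp2 stood at 26.0, 174, 77.5 and 26.6 CPM in the 4 groups in the same order, and Cdh3 at 36.01, 170.0, 92.5 and 34.0. Each thus had an intermediate level in EV-proficient paclitaxel libraries, like Degs2.

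For Qrfp they were Cnpy2 (0.989), Dusp2 (0.979), Tead3, a transcription factor of the Hippo pathway (0.975), Sorbs3 (0.974) and Bmp7, a secreted bone morphogenetic protein (0.974). Bmp7 stood at 6.41, 61.8, 97.1 and 8.33 CPM, highest in EV-proficient paclitaxel libraries as Qrfp was. Dusp2 was alone in being listed for 2 of the 3 members. Among the members, r was 0.963 between Plac8 and Qrfp, 0.913 between Plac8 and Degs2 and 0.794 between Degs2 and Qrfp. In likeness to Plac8, Qrfp ranked 28 and Degs2 138. In likeness to Degs2, Plac8 ranked 76 and Qrfp 437, and in likeness to Qrfp, Plac8 ranked 19 and Degs2 589. The members were chosen for a like pattern between EV labels, so a high r among them follows in part from the choice. These correlations over 12 libraries, among 10262 genes with a mean of at least 5 CPM and the members, describe patterns that all follow the same 4 groups. With ranks in place of values, 0, 1 and 0 of the 5 genes for Plac8, Degs2 and Qrfp stayed among the most alike.

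**Figure D3:**
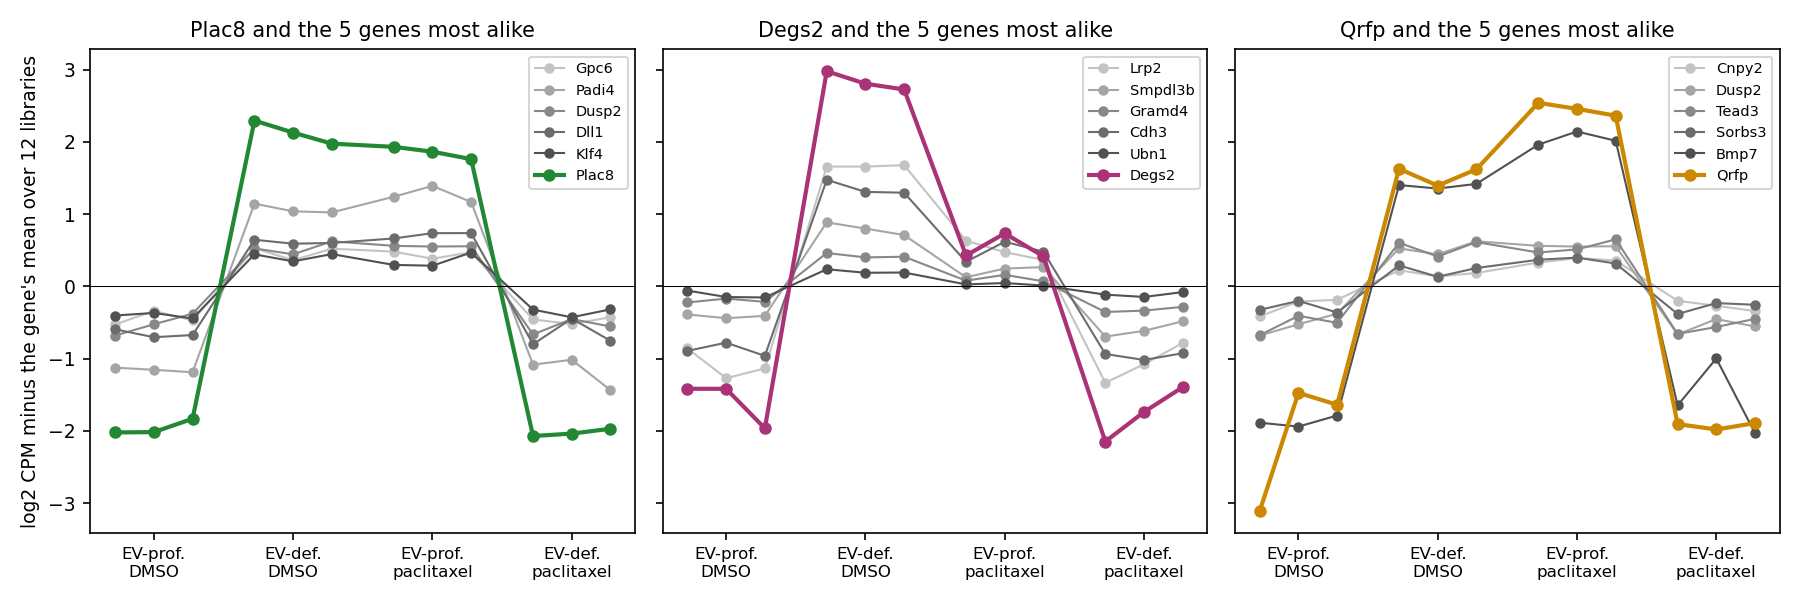
Log2 CPM minus the gene's own mean over the 12 libraries (y axis), library by library within the 4 groups (x axis), for each member (coloured) and the 5 genes most like it (grey). Most of the grey genes follow the shape with a smaller range than the member, and Bmp7 comes near the range of Qrfp.

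Genes near each member in the genome were compared between EV labels. All the tested ones had smaller fold changes than the member they lie beside. The choice of the members by large differences made this likely beforehand, so nothing is read from it. Cops4, a COP9 signalosome subunit gene 3786 bases from Plac8, differed by 0.20 ± 0.06 (log2, SE; edgeR adjusted p 0.012) under DMSO and by -0.30 ± 0.06 (adjusted p 2.7e-04) under paclitaxel. On the other side of Plac8, Coq2, of coenzyme Q synthesis, stood at -0.06 ± 0.07 and -0.26 ± 0.07. Hpse, the heparanase gene 107230 bases away, went the opposite way to Plac8, at -0.63 ± 0.16 (adjusted p 0.0053) and 0.57 ± 0.14 (adjusted p 0.0032). The pseudogene Gm19620 had at most 2 counts in a library.

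Evl, a gene of actin filament assembly, overlaps Degs2 on the other strand. Of the 2530 stretches of 50 bases in Degs2 transcripts, 229 also occur, as the same or the reverse-complement sequence, in Evl transcripts, and it is not stated whether strand was used in counting; without it, reads from the overlap cannot be told apart. Evl stood between 17.1 and 30.5 CPM over the 12 libraries while Degs2 stood between 0.820 and 30.1. Its log2 difference between EV labels was 0.05 ± 0.10 (not called) under DMSO and -0.41 ± 0.10 (edgeR adjusted p 0.0027) under paclitaxel. The non-coding neighbour Mir342 had at most 1 count. Plac8 and Qrfp transcripts shared 0 such stretches with other genes in GENCODE M21, the only annotation searched. In RefSeq the model of Abl1 overlaps the end of Qrfp, and reads from that overlap were not examined.

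Beside Qrfp lies Fibcd1, an acetyl-group-binding receptor gene 2709 bases away, and it had the member's pattern at a low level: 0.152 ± 0.103 CPM in EV-proficient DMSO, 0.484 ± 0.0610 in EV-deficient DMSO, 0.593 ± 0.0738 in EV-proficient paclitaxel and 0.129 ± 0.123 in EV-deficient paclitaxel cells (n = 3 each, SD), from at most 34 counts. Its differences between EV labels were 1.65 ± 0.65 (log2, SE; edgeR adjusted p 0.074, not called) under DMSO and -2.24 ± 0.65 (adjusted p 0.0090) under paclitaxel. Abl1, a tyrosine kinase gene whose RefSeq model overlaps the end of Qrfp, stood at 0.22 ± 0.06 (adjusted p 0.017) and -0.35 ± 0.06 (adjusted p 2.0e-04). Exosc2, of the RNA exosome, stood at 0.25 ± 0.09 (adjusted p 0.0498) and -0.45 ± 0.09 (adjusted p 7.7e-04). Lamc3, a laminin gene, was called under neither treatment (0.78 ± 0.43 and 0.48 ± 0.52; the second was -0.52 without EV-deficient paclitaxel replicate 3 and 0.90 without replicate 2), and Gm13427 had at most 7 counts in a library.

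Of the DMSO differences called among the coding neighbours, those of Cops4, Abl1 and Exosc2 did not hold in each fit without 1 library. That of Hpse kept its call in each, at -0.72 to -0.52. Leaving out EV-proficient paclitaxel replicate 1 ended the DMSO calls of Cops4 (0.16), Abl1 (0.18) and Exosc2 (0.21), and of 12 possible omissions 4, 6 and 10 did so. Fibcd1 under DMSO was called without EV-proficient DMSO replicate 1 (2.36), without EV-deficient paclitaxel replicate 3 (1.61) and in a fit of the DMSO groups alone (1.61). Under paclitaxel its difference kept its call but ran from -3.20 without EV-deficient paclitaxel replicate 2 to -1.69 without replicate 3. The uncalled DMSO differences ran from -0.10 to -0.03 for Coq2 and from 0.01 to 0.08 for Evl with 1 library left out.

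**Figure D4:**
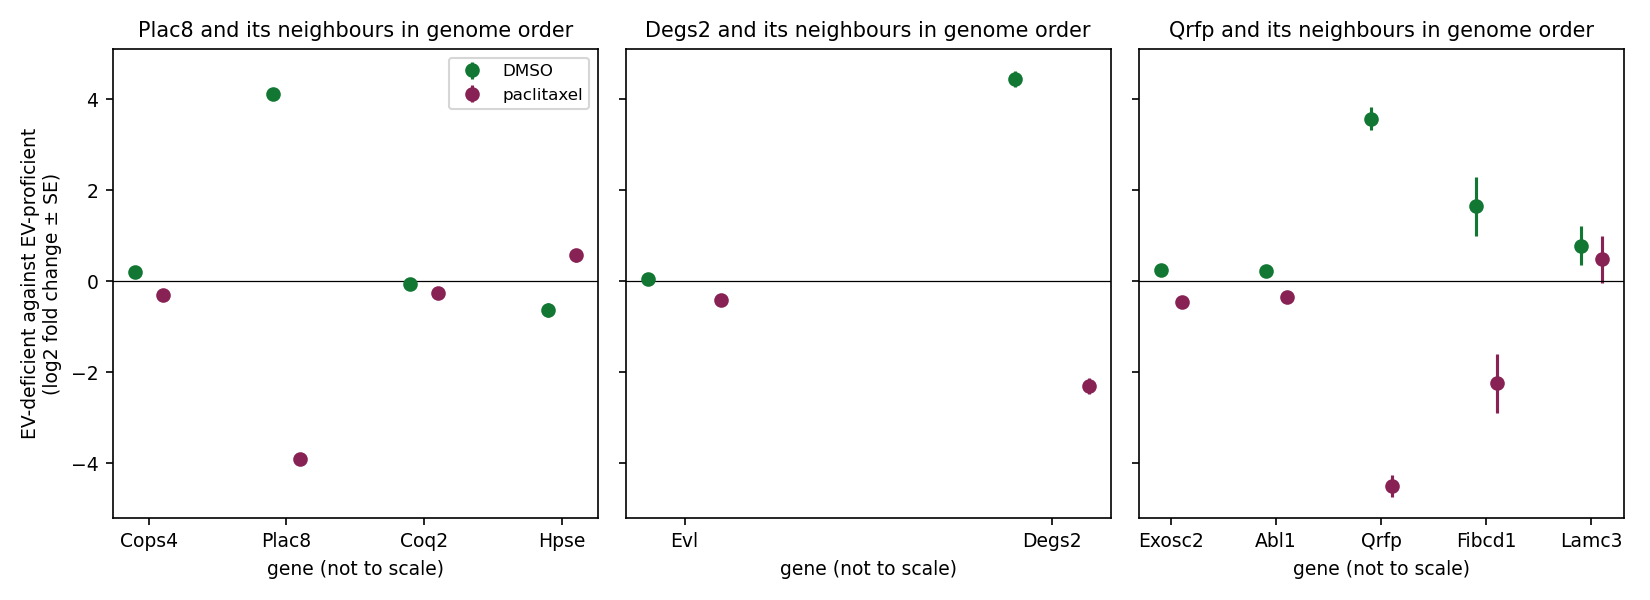
Log2 fold change of EV-deficient against EV-proficient libraries (points; bars, SE) under DMSO and under paclitaxel, for each member and the tested coding genes around it in genome order (x axis, not to scale). Plac8, Degs2 and Qrfp, which were chosen for large differences, lie beyond 2 on either side of 0. Of their neighbours only Fibcd1 does, under paclitaxel with all libraries in the fit (-1.69 without EV-deficient paclitaxel replicate 3).

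Of the relatives of Plac8, Plac8l1 had at most 5 counts in a library and was not tested. Cnfn, the gene of the cornified-envelope protein cornifelin, had at most 18 counts; its difference between EV labels was 1.77 ± 0.76 (log2, SE) under DMSO and -0.55 ± 0.78 under paclitaxel, neither called. Among 18 genes of autophagosome-lysosome fusion, the step to which Plac8 has been linked, 2 were higher and 3 lower in EV-deficient libraries under DMSO, 27.8% called against 23.0% of all genes, with a median of -0.05 against 0.04. Tecpr1, a tether of autophagosomes, was lower (-0.61 ± 0.08), as was the lysosomal membrane gene Lamp1 (-0.35 ± 0.06), and Uvrag was higher (0.30 ± 0.07). Under paclitaxel 4 were higher and 1 lower, 27.8% against 37.8% of all genes, with a median of 0.03 against -0.005; the SNARE gene Snap29 (0.54 ± 0.07), Lamp1 (0.52 ± 0.06) and Lamp2 (0.35 ± 0.09) led. Averaged over EV labels, paclitaxel raised 7 and lowered 7 of the 18, 77.8% against 68.4% of all genes, among them Tecpr1 (1.35 ± 0.05) and Vps33a (-0.95 ± 0.05). Lamp1 was thus lower under DMSO and higher under paclitaxel in EV-deficient libraries, the reverse of Plac8.

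Degs1, the relative of Degs2, also moved the reverse way and by much less. It stood at 195, 197 and 191 CPM in EV-proficient DMSO and 160.2, 153 and 153 CPM in EV-deficient DMSO libraries, and at 119, 108 and 115 CPM in EV-proficient and 168, 134 and 170.4 CPM in EV-deficient paclitaxel libraries. The EV labels did not overlap under either treatment, with log2 differences of -0.32 ± 0.07 (SE; edgeR adjusted p 0.0027) and 0.46 ± 0.07 (adjusted p 4.3e-05). Averaged over EV labels, Degs1 fell by 0.37 ± 0.05 on the log2 scale with paclitaxel (adjusted p 1.6e-06).

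Smpd3, of ceramide release, rose with paclitaxel by 1.46 ± 0.16 (log2, SE; edgeR adjusted p 3.0e-08), from 2.69 ± 0.386 to 5.30 ± 0.362 CPM in EV-proficient and from 1.62 ± 0.471 to 6.19 ± 1.56 CPM in EV-deficient libraries (SD, n = 3 each). Between EV labels it stood at -0.74 ± 0.23 (adjusted p 0.022) under DMSO and 0.22 ± 0.21 (not called) under paclitaxel, where it was 0.071 without EV-deficient paclitaxel replicate 2 and 0.41 without replicate 3. The DMSO call was lost with limma-voom and in 4 of the 12 fits without 1 library (-0.53 without EV-deficient DMSO replicate 1). Smpd3 thus did not follow the pattern of Degs2.

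Of 39 genes of sphingolipid metabolism other than Degs2, 35 were tested. Under DMSO 7 were higher and 7 lower in EV-deficient libraries, 40.0% called against 23.0% of all genes, with a median of 0.01 against 0.04. The ceramide kinase gene Cerk (1.10 ± 0.13, log2, SE), the ceramidase gene Acer2 (0.76 ± 0.14) and Galc, of galactosylceramide breakdown (0.67 ± 0.07), were highest, and Sptlc2, a subunit of the first enzyme of the pathway, was lower (-0.41 ± 0.06). Under paclitaxel 12 were higher and 9 lower, 60.0% against 37.8%, with a median of 0.02; Sptlc2 was higher (0.59 ± 0.06) and Acer2 lower (-0.73 ± 0.14). By role, of the 6 tested genes of serine palmitoyltransferase and its regulators 0 were higher and 2 lower in EV-deficient libraries under DMSO, and 2 higher and 0 lower under paclitaxel. In the role of Degs2 itself, from sphinganine to ceramide, 2 of 9 were higher and 3 lower, then 4 higher and 0 lower. Among 6 tested genes of ceramide release the counts were 3 higher and 1 lower, then 1 higher and 3 lower. Of 5 that use or transfer ceramide 1 was higher and 0 lower, then 3 and 2, and of 9 ceramidase and sphingosine phosphate genes 1 was higher and 1 lower, then 2 and 4. Acer2, Cerk and Galc therefore stood on the side of Degs2 under DMSO, while Sptlc2 and Degs1 stood on the other.

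Averaged over EV labels, paclitaxel raised 18 and lowered 11 of the 35 sphingolipid genes, 82.9% called against 68.4% of all genes, with a median of 0.27 against 0.07. The ceramidase gene Asah2 (1.27 ± 0.06, log2, SE), Cerk (1.04 ± 0.09) and Kdsr, which makes sphinganine (0.88 ± 0.06), rose, and Smpd4 (-1.04 ± 0.05), the ceramide synthase gene Cers5 (-0.94 ± 0.05) and Sptlc1 (-0.88 ± 0.06) fell. Of the serine palmitoyltransferase genes 0 rose and 4 fell, of those from sphinganine to ceramide 5 rose and 4 fell, and of those of ceramide release 5 rose and 1 fell. Of the ceramide users 3 rose and 1 fell, and of the ceramidase and sphingosine phosphate genes 5 rose and 1 fell. The average fall of Degs2, 1.23, joins opposite values under the labels as deposited, 2.14 in EV-proficient and -4.61 in EV-deficient cells.

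Qrfpr, a receptor gene of the Qrfp peptides, had at most 9 counts in a library and was not tested, so its level could not be compared at this depth. The receptors on the list below also include Qrfprl, whose level is not given here. Among the enzymes that finish RFamide peptides, Qpct, a glutaminyl cyclase, rose with paclitaxel averaged over EV labels by 1.48 ± 0.13 (log2, SE; edgeR adjusted p 2.5e-09), and its relative Qpctl fell by 0.58 ± 0.08 (adjusted p 5.9e-07). Neither was called between EV labels, with differences of 0.20 ± 0.20 and 0.11 ± 0.18 for Qpct under DMSO and paclitaxel. The DMSO value rose to 0.30 without EV-proficient DMSO replicate 2, and the paclitaxel value had no stable sign, at -0.026 without EV-deficient paclitaxel replicate 1 and 0.33 without replicate 2. Pam, which amidates peptide ends, rose with paclitaxel by 0.58 ± 0.05 (adjusted p 7.2e-10) and was lower in EV-deficient libraries under DMSO (-0.27 ± 0.07, adjusted p 0.0054), a call lost without EV-deficient DMSO replicate 3 (-0.23). Of the 22 genes on the list of RFamide peptides, receptors and processing enzymes, 20 were matched by symbol and 13 tested. Between EV labels 2 were higher and 3 lower under DMSO, 38.5% against 23.0% of all genes, and 2 higher and 5 lower under paclitaxel, 53.8% against 37.8%. The proprotein convertase gene Pcsk6 (0.33 ± 0.07 under DMSO, -0.66 ± 0.07 under paclitaxel) had the direction of Qrfp in both, and the carboxypeptidase gene Cpd (-0.22 ± 0.07 and 0.38 ± 0.07) the opposite one. The DMSO call of Cpd was lost without the low-count filter and without EV-proficient DMSO replicate 1 (-0.15) or any one of the EV-deficient DMSO replicates. Averaged over EV labels 4 rose and 5 fell, 69.2% against 68.4% of all genes.

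Of the 10 squamous markers, Krt8, Krt18, Cdh1, Epcam and Perp were abundant in every group, while the basal markers Krt5 and Trp63 reached at most 8 and 11 counts in a library. The summed level of the 10 squamous markers was 5325 to 5746 CPM in EV-proficient and 5935 to 6460 in EV-deficient DMSO libraries, and 3793 to 4103 and 3303 to 3458 CPM under paclitaxel. Krt14 stood at 191.2, 681, 190.9 and 80.0 CPM and Krt6a at 42.0, 318, 15.5 and 2.48 CPM (means in EV-proficient DMSO, EV-deficient DMSO, EV-proficient paclitaxel and EV-deficient paclitaxel libraries). Of the 8 squamous markers with a mean of at least 1 CPM, 6 (Krt14, Krt6a, Krt18, Epcam, Sfn and Perp) had a higher mean in EV-deficient libraries under DMSO and a lower one under paclitaxel, as the 3 genes did. Of the 12692 tested genes with such a mean, 43.7% had this order and 28.4% the opposite one. The other 2, Krt8 (2197 and 1812 CPM under DMSO, 895 and 971 under paclitaxel, EV-proficient first) and Cdh1, had the opposite order. This order concerns only the signs of the differences between EV labels. In EV-proficient libraries the means of Krt14, Krt6a, Krt18 and Sfn did not rise from DMSO to paclitaxel, unlike those of the 3 genes. The means of Epcam and Perp did rise there. Summed markers of other cells were low: 5 immune markers reached at most 1.54 CPM, with 1 of them at 0 in all libraries, 4 fibroblast markers 1.08 to 6.17, 4 endothelial markers 1.94 to 4.76 and 4 neuronal and neuroendocrine markers 0.463 to 2.92 CPM. In bulk RNA, fewer cells of a type and less RNA per cell cannot be told apart. The part of these markers in the levels of Plac8, Degs2 and Qrfp was not tested.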

How the data were processed

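Per the labels' protocols, the 12 libraries were made from poly(A) RNA with a stranded kit. Raw gene-level counts, as whole numbers in 1 table, are what the authors deposited. The submitters' processing notes name STAR 2.5.0a and GRCm38; the counting program, the annotation release and the use of strand are not given in the sources used here. The table had 0 columns of other samples, and its 2 added rows stayed out of library sizes and tests.

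They were fitted with edgeR 4.0.16 in R 4.3.3: filterByExpr (minimum count 10), scaling by trimmed mean of M values (factors 0.890 to 1.15), and 1 quasi-likelihood fit of all 12 libraries with a mean per group, with Benjamini-Hochberg adjustment over the 18108 genes tested and a threshold of 0.05. SE is the size of the log2 fold change over sqrt(F). The fit was first tested on simulated counts. Likeness was computed on log2 CPM (prior count 2). Floors use 3 counts and cover counting error only.

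The members, the gene lists and the tests were chosen with earlier results of these data known. Named were the members, 8 fixed relatives and partners, the 5 genes most alike per member, the 2 nearest genes with a symbol on either side and those overlapping, and at most 3 genes a direction from each list and comparison with a mean of at least 5 CPM. Overlapping genes are beyond the rule and were named after their values were seen, as were Krt14, Krt6a, Krt8 and Cdh1, whose values or order are given among the markers.

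The 12 replicate pairs differed beyond sampling noise (chi-square per degree of freedom 4.20 to 27.8). Tried in their place were DESeq2 1.42.0, limma-voom (limma 3.58.1), scaling by median of ratios or by upper quartile, no filter or 1 CPM in 3 libraries, a replicate block, a fit of the 2 groups alone, and each library left out in turn.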

Additional observations from a re-analysis of the deposited data

Results flagged for a closer look

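The difference between EV labels (EV-deficient minus EV-proficient, log2) was not the same under both treatments for these results. Under paclitaxel minus under DMSO, it came to -8.01 for Plac8, -6.75 for Degs2 and -8.06 for Qrfp; this is the contrast that chose them, so no test is given. Other named genes are listed only where the interaction term passed the threshold of edgeR's quasi-likelihood test, as it did for 40.7% of all genes tested. List genes had also to be among those named between EV labels under both treatments. Of the relatives, partners and neighbours that were tested, Coq2, Lamc3, Qpct, Qpctl and Cnfn did not pass. Among relatives and partners it was 0.79 for Degs1, 0.96 for Smpd3 and 0.35 for Pam. Among the genomic neighbours it was -0.50 for Cops4, 1.199 for Hpse, -0.46 for Evl, -0.70 for Exosc2, -3.89 for Fibcd1 and -0.57 for Abl1. Among the list genes it was -1.49 for Acer2, 1.00 for Sptlc2, 0.77 for Cers5, -0.99 for Pcsk6, 0.61 for Cpd and 0.87 for Lamp1. Without 1 library, the call of Smpd3 was lost once (0.74 without EV-deficient DMSO replicate 1) and that of Evl without EV-deficient paclitaxel replicate 2 (-0.30) or EV-proficient paclitaxel replicate 2 (-0.31); Evl also lost it with upper-quartile scaling (-0.34). The other 13 kept their calls in each alternative that tested them; Fibcd1 was not tested with a filter of 1 CPM in 3 libraries. The dngfr row, outside the comparisons, reached 14.2 CPM of the unscaled library total in 1 EV-deficient paclitaxel library.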

How the results depend on the processing

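Among the results recomputed, none that was called changed direction. For the interaction of EV label and paclitaxel, alternatives were chosen after seeing the data: 6560 to 7367 genes were called with 1 library left out against 7370, and Plac8 moved to -7.88 with upper-quartile scaling, which moved the median of all genes by 0.12. The average effect of paclitaxel on Degs2 kept its call in all of them (-1.37 to -1.17 with 1 library left out). That on Plac8 was not called with a filter of 1 CPM in 3 libraries (-0.14, adjusted p 0.080), limma-voom (-0.17, adjusted p 0.18) or upper-quartile scaling (-0.052, adjusted p 0.52), and ran from -0.22 to -0.14 with 1 library left out; that on Qrfp ran from 0.25 to 0.62. Upper-quartile scaling moved the median paclitaxel effect of all genes in EV-deficient cells by 0.18, and with it Plac8 to -3.99, Degs2 to -4.42 and Qrfp to -3.39. With Spearman ranks, 0, 1 and 0 of the 5 genes most like Plac8, Degs2 and Qrfp were shared. Under DMSO, a fit of only the 2 groups called 8 fusion genes and 8 RFamide list genes between EV labels, against 5 each, while the sphingolipid list went from 14 to 21 and all genes from 4162 to 5697. With 1 library left out these counts ran from 3 to 5 and from 3 to 6, and that of the sphingolipid list from 9 to 17. Over all genes, calls between EV labels under DMSO ran from 2980 to 4455 with 1 library left out, lowest without EV-deficient DMSO replicate 1. The cause of these shifts was not tested. Same-numbered libraries of different groups showed no marked shared shift: the correlations of their deviations from the group means ran from -0.0812 to 0.0970. These values cannot tell whether such libraries were prepared together. With the replicate block, the average effects were -0.17 (Plac8, adjusted p 0.037), -1.23 (Degs2) and 0.46 (Qrfp, adjusted p 0.038), all called, and 12341 genes were called in that contrast against 12388. Exosc2 under DMSO was not called with the block (adjusted p 0.059). The low groups of Qrfp rest on 8 to 31 counts a library, which limits the precision of its fold changes.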
